A study of Mus musculus with 8 samples.

Results

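The interferon-inducible GTPases described here were 8 genes picked by symbol and not by a rule on measured values, though earlier results of these data were known. They were the guanylate-binding proteins Gbp2, Gbp3, Gbp5 and Gbp7, and the immunity-related GTPases Irgm1, Igtp, Iigp1 and Ifi47. All 8 were found in the deposited table of 11415 genes. Total RNA was sequenced from mouse macrophages grown from bone marrow for 5 days in medium conditioned with M-CSF, the growth factor that turns marrow precursors into macrophages. Every group, controls included, was grown from 129S6/SvEvTac mice with the genotype IL10-/-RAG2-/-, which make no IL-10 of their own and no T or B cells. The groups were LPS at 1 ng/mL for 195 min with IL-10 at 1 ng/mL for the same 195 min (IL-10 throughout), LPS for 195 min with IL-10 in the last 30 min only (late IL-10, whose dose the labels do not restate), LPS alone for 195 min, and untreated cells. Each group held 2 libraries, and the series' design text names 2 independent macrophage pools. The animals' age and sex were not given in the sources used here.

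Guanylate-binding proteins and immunity-related GTPases are large GTP-hydrolysing proteins whose genes are switched on by interferons, through transcription factors that bind the interferon-stimulated response element (ISRE) and the gamma-activated site (GAS). In mouse macrophages they assemble on the vacuoles or surfaces of intracellular microbes, damage them and expose their products to cytosolic sensors. LPS, a bacterial lipopolysaccharide, engages Toll-like receptor signalling that makes macrophages secrete interferon-beta, which then acts back on the same cells, and IL-10 is a cytokine that restrains this activation through STAT3.

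In the mouse genome (GRCm38, GENCODE M21 annotation) the 4 guanylate-binding protein genes lie in 1 cluster on the plus strand of chromosome 3. Gbp5 spans chr3:142493978-142522344, Gbp7 chr3:142530342-142550149, Gbp3 chr3:142560026-142573209 and Gbp2 chr3:142620602-142638008. Irgm1 (chr11:48861968-48871683, minus strand), Ifi47 (chr11:49076587-49096974, plus strand) and Igtp (chr11:58199556-58207591, plus strand) lie on chromosome 11. Igtp shares 7974 bases on the same strand with an annotated span of Irgm2, and all 20388 bases of Ifi47 lie inside the same-strand span of Olfr56. How the counting dealt with such overlaps was not given, so the pre-mRNA values of Igtp and Ifi47 are uncertain. Of the 50-base words in the members' transcripts, 12.7% for Gbp7 (10.5% in the pseudogene Gm43802) and 11.8% for Igtp (in Irgm2) also occur in another gene, against 0.31% to 3.75% for the other 6 members.

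The 250 bases before the RefSeq start (GRCm38.p6) are printed for 6 members, because the ISRE and the GAS are the elements through which interferon signals reach these genes. Capitals mark the ISRE core GAAANNGAAA, read on either strand (TTTCNNTTTC on the other), and the GAS core TTCNNNGAA, which is its own reverse complement.
Gbp2, chr3:142620413-142620662, plus strand: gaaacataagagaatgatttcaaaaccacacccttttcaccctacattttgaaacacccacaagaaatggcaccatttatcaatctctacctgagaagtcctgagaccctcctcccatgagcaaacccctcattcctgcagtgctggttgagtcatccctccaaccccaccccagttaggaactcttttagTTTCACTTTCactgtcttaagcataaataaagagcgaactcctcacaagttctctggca
Gbp5, chr3:142496684-142496933, plus strand: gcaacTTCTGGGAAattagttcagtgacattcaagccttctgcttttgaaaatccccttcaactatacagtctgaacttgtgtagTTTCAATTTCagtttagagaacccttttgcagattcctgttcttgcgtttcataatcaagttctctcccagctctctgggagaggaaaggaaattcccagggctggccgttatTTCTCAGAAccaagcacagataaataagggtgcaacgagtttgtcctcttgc
Gbp7, chr3:142530086-142530335, plus strand: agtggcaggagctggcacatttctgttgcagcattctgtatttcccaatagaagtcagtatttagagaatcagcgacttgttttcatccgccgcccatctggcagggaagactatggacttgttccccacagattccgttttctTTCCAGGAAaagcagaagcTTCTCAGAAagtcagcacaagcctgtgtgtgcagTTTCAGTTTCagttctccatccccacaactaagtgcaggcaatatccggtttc
Irgm1, chr11:48871421-48871670, minus strand: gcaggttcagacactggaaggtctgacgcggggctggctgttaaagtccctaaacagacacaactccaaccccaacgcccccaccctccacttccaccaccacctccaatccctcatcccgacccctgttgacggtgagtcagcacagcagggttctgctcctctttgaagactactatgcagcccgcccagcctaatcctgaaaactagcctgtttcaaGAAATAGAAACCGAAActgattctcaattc
Igtp, chr11:58199306-58199555, plus strand: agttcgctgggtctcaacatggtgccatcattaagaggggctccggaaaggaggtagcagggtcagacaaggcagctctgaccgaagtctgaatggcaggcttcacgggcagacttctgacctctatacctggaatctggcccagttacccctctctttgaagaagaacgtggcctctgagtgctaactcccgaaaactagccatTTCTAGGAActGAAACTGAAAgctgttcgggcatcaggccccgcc
Ifi47, chr11:49076337-49076586, plus strand: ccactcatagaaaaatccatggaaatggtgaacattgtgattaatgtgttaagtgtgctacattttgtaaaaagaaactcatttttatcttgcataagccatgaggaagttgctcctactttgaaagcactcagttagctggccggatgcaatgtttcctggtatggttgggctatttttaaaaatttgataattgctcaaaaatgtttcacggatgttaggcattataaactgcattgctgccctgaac
In the windows of the 7 members searched, 6 genes held an ISRE core and 3, Gbp5, Gbp7 and Igtp, also held a GAS core. Of all 32851 RefSeq promoter windows of this length, 2.98% held the ISRE core and 7.02% the GAS core. Counted by gene, as for the members, 3.51% and 7.38% of the 8802 listed genes with a window held them. The ISRE core lay within 100 bases of the start in 5 members (Gbp2, Gbp3, Gbp7, Irgm1 and Igtp), against 0.983% of all windows, and in Gbp5 its far end lay 165 bases before the start. Irgm1 held a pair of ISRE cores that overlap each other, as did Gbp3, and no ISRE core of a member overlapped a GAS core. These letters were not found in the Ifi47 window, and a second Gbp3 window held none. A match is a run of letters and was not tested as a binding site. Iigp1 has no entry.

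Each deposited value was a group mean of normalised reads, that is reads divided by a size factor of their library, given for mature mRNA and for pre-mRNA. Every value was the mean of 2 libraries, and both libraries' reads could be worked out for 100% of values. Libraries are called A (larger size factor) and B within each group and measure, and A of 1 group is not known to be the same pool as A of another. Reads per library numbered 21412968 to 53172133 for mRNA, and 8661271 to 31508394 for pre-mRNA. All 10 macrophage markers looked for were in the table, with 527554 to 880088 summed normalised mRNA reads per library. Of 11 NK and T cell markers only Lck was listed (6.21 to 444 normalised mRNA reads), and none of 5 B cell markers was.

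LPS raised all 8 GTPases, from low or near-zero levels, in mature and in precursor transcripts. Changes are log2 differences of normalised reads + 1 with a standard error from limma, 2 libraries per group, and a call is a Benjamini-Hochberg adjusted p under 0.05 over all genes tested. By mRNA 8 of 8 members rose, where 19.2% of the 11415 genes tested were called higher, and by pre-mRNA 8 of 8 rose, where 22.3% of 11131 were. The members' median log2 rise was 6.53 in mRNA and 7.38 in pre-mRNA, beside 0.0075 and 0.0010 for all genes tested. Every gene in the table had 11 or more reads in both LPS mRNA libraries, so genes low with LPS are missing from these counts. Iigp1 was under that floor in both untreated mRNA libraries.

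Gbp5, known for promoting inflammasome activation, had the largest log2 rise of the 8 in mRNA. Its mRNA stood at 55605 and 123348 normalised reads in the LPS libraries, against 136 and 77.0 in the untreated ones. Its pre-mRNA stood at 100576 and 53874 with LPS, against 51.1 and 21.9 untreated. Both LPS libraries were far above both untreated ones, a log2 rise of 9.64 ± 0.66 in mRNA (SE, limma adjusted p 0.00017) and 11.06 ± 0.67 in pre-mRNA (limma adjusted p 4.1e-05). Irgm1, a regulatory GTPase that keeps the effector members off the cell's own membranes, had the smallest rise of the 8. Irgm1 mRNA was at 16549 and 47355 normalised reads with LPS and at 926 and 771 untreated, a log2 rise of 5.05 ± 0.76 (limma adjusted p 0.0034). Its pre-mRNA was at 6251 and 3483 with LPS and at 143 and 207 untreated, a log2 rise of 4.75 ± 0.55 (limma adjusted p 0.00055).

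Iigp1, an effector GTPase that coats and ruptures parasite vacuoles, was almost silent without LPS. Its mRNA was at 563 and 4068 normalised reads with LPS, against 5.95 and 1.24 untreated (9 reads and 1 read), a log2 rise of 8.58 ± 1.28 (limma adjusted p 0.0032). Only 2 pre-mRNA reads were counted in the untreated libraries together, against 3194 with LPS, a depth-adjusted ratio of 2572 with an exact binomial 95% interval of 711 to 21244 that covers counting error only. The fold of the group means was 2116 for Gbp5 pre-mRNA, inside that interval, so which of these genes rose more in pre-mRNA is not settled. Igtp, the second regulatory GTPase of the set, and Ifi47, an effector GTPase, rose by 5.26 ± 0.80 and 6.49 ± 0.91 on the log2 scale in mRNA. Gbp2 and Gbp7, which act at vacuoles of intracellular pathogens, rose by 6.92 ± 0.72 and 6.21 ± 0.78 in mRNA, and Gbp3 by 6.57 ± 0.66. No LPS library of any member overlapped an untreated one in either measure, where libraries stood apart in this direction for 34.7% of genes tested in mRNA and 36.2% in pre-mRNA. The plot of values by library shows this separation.

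Some markers of other cell types were also higher with LPS than without it. In mRNA 4 of 5 dendritic cell markers, 5 of 8 neutrophil and granule markers and 3 of 4 stromal and endothelial markers were called higher, and in pre-mRNA 3 of 5, 5 of 7 and 2 of 4 of those tested. Of all genes tested 19.2% were called higher in mRNA and 22.3% in pre-mRNA. The dendritic cell markers summed to 9528 and 17955 normalised mRNA reads with LPS, against 1363 and 2911 untreated. The neutrophil and granule markers summed to 5247 and 6985 with LPS, against 4480.25 and 5579 untreated, and the stromal and endothelial ones to 3743 and 4359 with LPS, against 1346 and 2424 untreated. Macrophage markers summed to 880088 and 823377 with LPS, against 535819 and 527554 untreated. The dendritic cell markers Flt3, Clec9a and Siglech, the neutrophil markers Ly6g and Elane and the stromal marker Dcn were not among the genes listed. The part of these shifts in the LPS rise of the GTPases was not tested.

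**Figure D1:**
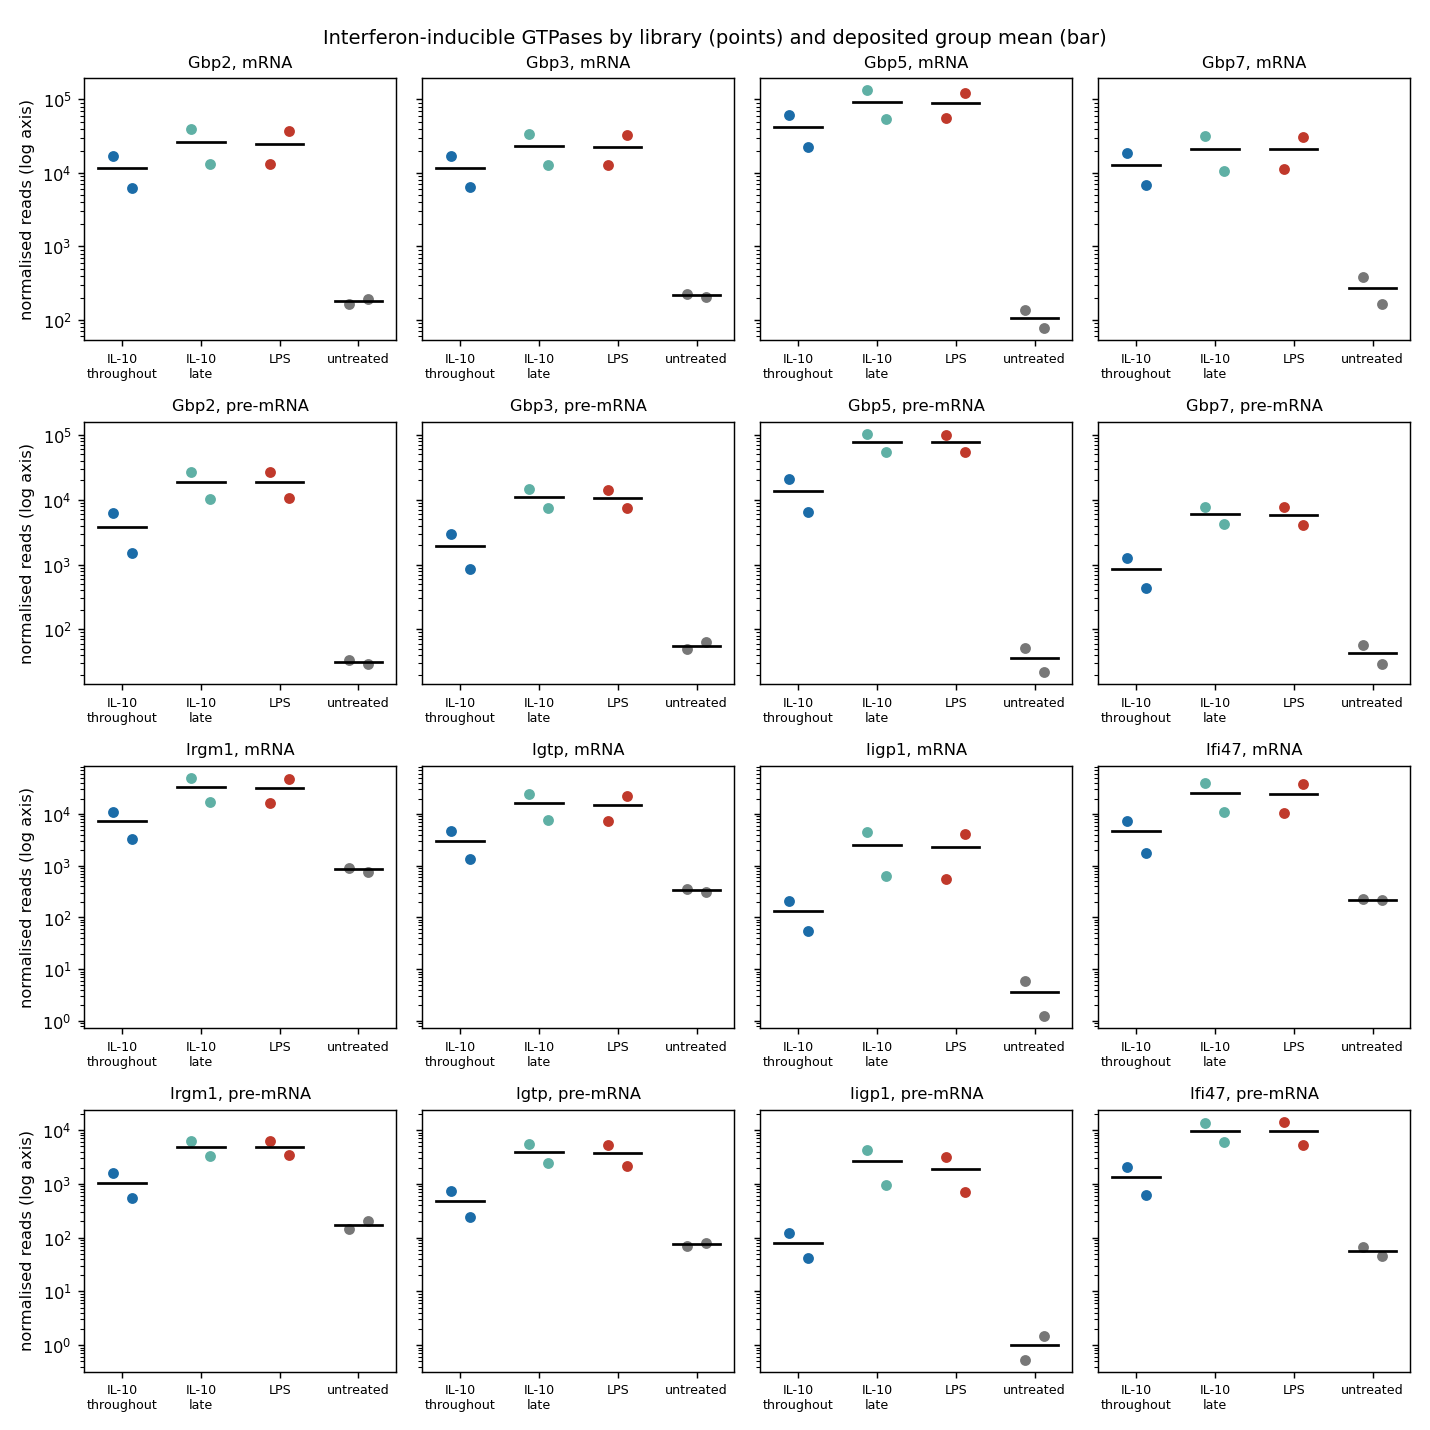
Normalised reads (log axis) of the 8 GTPases in each library (points, library A left of B) with the deposited group mean (bar), mRNA above pre-mRNA, for LPS with IL-10 throughout, LPS with late IL-10, LPS and untreated cells. Untreated libraries lie far below all others (Gbp5 mRNA 136 and 77.0, against 55605 and 123348 with LPS), and pre-mRNA of the IL-10 throughout libraries lies below both LPS libraries for all 8.

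Per kilobase of merged exon, Gbp5 was the most abundant member in LPS-treated cells and Iigp1 the least. The mean mRNA levels with LPS were 13481 normalised reads per kb for Gbp5, 9914 for Gbp2, 9832 for Ifi47, 7345 for Igtp, 7004 for Gbp3, 5499 for Irgm1, 3771 for Gbp7 and 398 for Iigp1. Libraries of neighbours in that order overlapped except those of Gbp7 and Iigp1. Taken within each library, Gbp2 and Ifi47 changed places between A and B, as did Igtp and Gbp3, and the other members kept their order. With IL-10 throughout the order of mean levels became Gbp5 (6261 normalised reads per kb), Gbp2 (4587), Gbp3 (3617), Gbp7 (2277), Ifi47 (1866), Igtp (1492), Irgm1 (1251) and Iigp1 (22.5), so the 4 guanylate-binding proteins stood above the 4 immunity-related GTPases. Here too only Iigp1 stood clear of its neighbour's libraries, but library A and library B, each taken alone, gave this same order. In untreated cells Igtp (166 normalised reads per kb) and Irgm1 (146), the regulatory members, had the highest levels, Gbp5 had 16.1 and Iigp1 0.618.

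Setting IL-10 throughout against LPS asks how far IL-10 present from the start holds the GTPase genes down. In pre-mRNA, taken here as the unspliced precursor that tracks current transcription, 6 of 8 members fell: Gbp3, Gbp7, Irgm1, Igtp, Iigp1 and Ifi47. How reads were assigned to pre-mRNA was not given, and the values of Igtp and Ifi47 are uncertain because of their overlaps with other genes. Of the 11131 genes tested 4.26% were called lower. Gbp2 and Gbp5 had changes of similar size and missed the threshold. For all 8 members both IL-10 libraries lay below both LPS libraries, which held for 25.6% of genes tested. The members' median log2 change was -2.80, beside 0.0015 over all genes tested.

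Iigp1 showed the largest drop. Its pre-mRNA was at 121 and 41.0 normalised reads with IL-10 throughout, against 3134 and 711 with LPS, a log2 change of -4.38 ± 0.92 (limma adjusted p 0.035). Igtp stood at 736 and 237 with IL-10 throughout and at 5296 and 2166 with LPS, a log2 change of -3.02 ± 0.64 (limma adjusted p 0.036). Gbp7, which supports oxidative host defence, was at 1268 and 441 with IL-10 throughout, against 7740.1 and 4089 with LPS, a log2 change of -2.91 ± 0.59 (limma adjusted p 0.032). In each of these genes the higher IL-10 library was below the lower LPS library.

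Ifi47 pre-mRNA was at 2085 and 629.9 normalised reads with IL-10 throughout, against 14256 and 5220.3 with LPS (log2 change -2.91 ± 0.69, limma adjusted p 0.048). Gbp3 was at 2954 and 862 with IL-10 throughout, against 14245 and 7411 with LPS (log2 change -2.69 ± 0.61, limma adjusted p 0.044). The smallest change of the 8 was that of Irgm1, at 1571 and 550.1 with IL-10 throughout, against 6251 and 3483 with LPS (log2 change -2.33 ± 0.55, limma adjusted p 0.049). Of the members past the threshold, Ifi47 and Irgm1 were the closest to it.

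Gbp5 pre-mRNA, not called, was at 20644 and 6392 normalised reads with IL-10 throughout, against 100576 and 53874 with LPS, a log2 change of -2.68 with a 95% interval of -4.23 to -1.13 (limma adjusted p 0.055). Gbp2 pre-mRNA, also not called, was at 6213 and 1504 with IL-10 throughout, against 26687 and 10667 with LPS, a log2 change of -2.46 with an interval of -4.19 to -0.74 (limma adjusted p 0.094). Their libraries stood apart in the same way as those of the 6 called members. The count of 6 rested on individual libraries: it was 0 without IL-10 throughout library B or without LPS library A, 4 without IL-10 throughout library A and 7 without LPS library B. It was 5 with limma-voom, 2 with only the compared groups in the fit and 0 without a filter on low genes, and the log2 changes of all 8 members were below 0 in every one of these fits.

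Markers of other cell types moved as well. The 5 dendritic cell markers in the table summed to 2878 and 2782 normalised pre-mRNA reads with IL-10 throughout, against 18188 and 13454 with LPS, and 1 of the 5, Itgax, fell. The 4 stromal and endothelial markers summed to 451 and 400.2 against 3298 and 2802, and 2 of the 4, Pdgfrb and Kdr, fell. Neutrophil and granule markers, 8 in the table, summed to 10590 and 9465 against 4822 and 3286, and 2 of the 7 tested rose. Of all genes tested 4.26% were called lower and 2.44% higher in pre-mRNA. The 10 macrophage markers summed to 51658 and 57059 against 90365 and 68717. The part of these shifts in the GTPase result was not tested, and in bulk RNA fewer cells of a type and less RNA per cell cannot be told apart.

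In mature mRNA none of the 8 members was called with IL-10 throughout, where 1.05% of 11415 genes were called lower by limma. At an unadjusted p under 0.05 limma gave 4 lower members and 0 higher, where 8.37% of genes were lower at that level, and limma-voom called 0. The 4 were the immunity-related GTPases, and their libraries did not overlap with those of LPS, which was so for 21.3% of genes tested. The 4 guanylate-binding proteins had smaller changes and overlapping libraries.

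Iigp1 mRNA was at 207 and 55.3 normalised reads with IL-10 throughout, against 563 and 4068 with LPS, a log2 change of -3.81 with a 95% interval of -6.85 to -0.77 (limma adjusted p 0.227). Igtp mRNA was at 4681 and 1352 with IL-10 throughout and at 7463 and 22239.5 with LPS, a log2 change of -2.36 (limma adjusted p 0.228). Irgm1 was at 11223 and 3314 against 16549 and 47355 with LPS, a log2 change of -2.20 (limma adjusted p 0.238). In all 3 the higher IL-10 library stayed below the lower LPS library, though the 2 libraries of each group stood far apart. Ifi47 was at 7454 and 1778 with IL-10 throughout, against 10448 and 38178 with LPS, a log2 change of -2.46 (limma adjusted p 0.272).

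Gbp2 mRNA was at 16867 and 6217 normalised reads with IL-10 throughout, against 13060.2 and 36828 with LPS, a log2 change of -1.10 with a 95% interval of -2.80 to 0.60. For Gbp7 the values were 18709 and 6860.2 with IL-10 throughout, against 11327 and 31009.6 with LPS, a log2 change of -0.73 with an interval of -2.58 to 1.12. In both genes the higher IL-10 library lay between the LPS libraries. Gbp5 (60470.5 and 22639 with IL-10 throughout, against 55605 and 123348 with LPS) and Gbp3 (17113 and 6505 against 12687 and 33052) had log2 changes of -1.16 and -0.96. The limma adjusted p of the 4 guanylate-binding proteins was 0.503 to 0.786, and the intervals leave room for a drop as large as those of Irgm1 and Igtp.

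**Figure D2:**
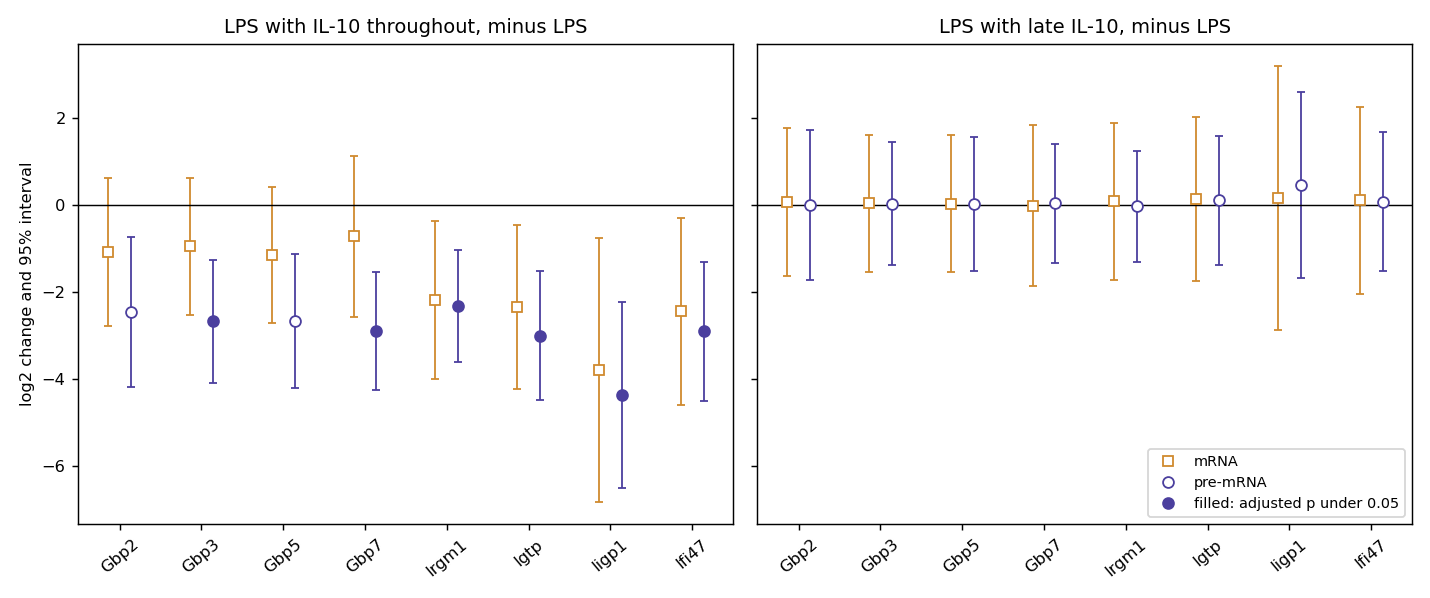
Log2 change (point) and 95% interval (bar) of mRNA (squares) and pre-mRNA (circles) for the 8 GTPases, with IL-10 throughout against LPS on the left and late IL-10 against LPS on the right, 2 libraries per group, filled where the limma adjusted p was under 0.05. With IL-10 throughout, pre-mRNA changes run from -4.38 (Iigp1) to -2.33 (Irgm1) while mRNA changes of the guanylate-binding proteins lie at -1.16 to -0.73, and with late IL-10 every interval spans 0.

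Set against the LPS rise, the guanylate-binding proteins kept a larger share in mRNA than in pre-mRNA by the group means, though the mRNA shares moved widely with single libraries. The share of the rise left with IL-10 throughout, from the group means, was 45.9% for Gbp2, 51.2% for Gbp3, 46.4% for Gbp5 and 59.9% for Gbp7 in mRNA. In pre-mRNA it was 20.5%, 17.2%, 17.5% and 13.8% in the same order of genes. Irgm1 kept 20.6% in mRNA and 18.9% in pre-mRNA, Igtp 18.5% and 11.3%, Ifi47 18.2% and 13.4%, and Iigp1 5.52% and 4.16%. Each library was then left out in turn, a choice made after the data were seen. The mRNA share ran from 24.4% to 88.2% for Gbp2, from 27.8% to 93.0% for Gbp3, from 25.2% to 74.7% for Gbp5 and from 31.5% to 113% for Gbp7. Over the 4 immunity-related GTPases it ran from 2.23% to 43.0%, and in pre-mRNA the shares of all 8 members ran from 2.08% to 36.0%. The lowest mRNA share of every member was that without IL-10 throughout library A and the highest that without LPS library B. The difference between the pre-mRNA and the mRNA change, tested in 1 limma fit of both measures, was largest for Gbp7 (-2.18 ± 1.07 on the log2 scale, unadjusted p 0.066) and smallest for Irgm1 (-0.13 ± 1.04). It was called for 0 of 8 members (limma adjusted p 0.9999 for each, 0 at an unadjusted p under 0.05), where 0.00898% of 11131 genes were called lower. The unequal shares of the guanylate-binding proteins are therefore a description of these group means. Both measures come from the same RNA, but the fit treated them as independent because their libraries could not be matched. Differences between libraries stayed in its standard errors, so the lack of a call does not show that the changes were equal.

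**Figure D3:**
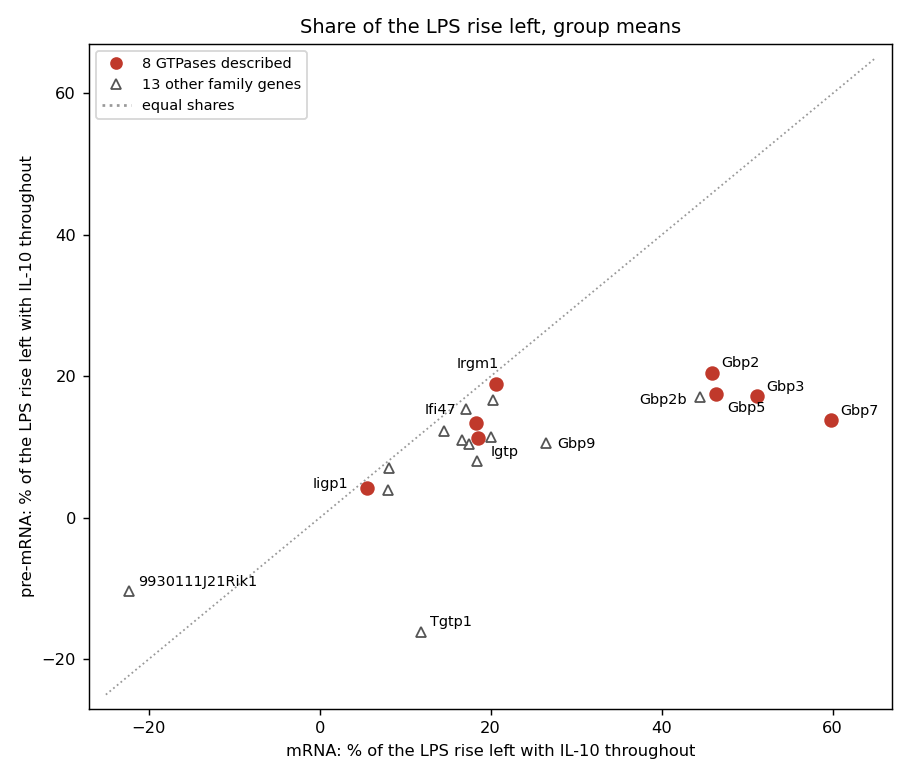
Percent of the LPS rise (group mean with LPS minus untreated) that was left with IL-10 throughout, in mRNA (horizontal) and pre-mRNA (vertical), for the 8 GTPases (filled circles) and 13 other family genes (triangles), with a dotted line at equal shares. Gbp2, Gbp3, Gbp5, Gbp7 and Gbp2b lie at 44.5% to 59.9% on the mRNA axis and 13.8% to 20.5% on the pre-mRNA axis, while Irgm1, Igtp, Ifi47 and Iigp1 lie near the line.

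Cells given LPS with IL-10 throughout still had more GTPase RNA than untreated cells. Compared with untreated cells, 8 of 8 members were higher in mRNA (14.2% of genes tested were) and 8 of 8 in pre-mRNA (14.1%). The log2 difference ran from 2.85 (Irgm1) to 8.48 (Gbp5) in mRNA and from 2.43 (Irgm1) to 8.38 (Gbp5) in pre-mRNA. In mRNA the call of Iigp1 was the least often kept, in 5 of 11 alternative fits. Those of Irgm1, Igtp and Ifi47 were each kept in 8 of 11. The mRNA count was 4 when IL-10 throughout library A or either untreated library was left out, and the 4 guanylate-binding proteins were called in all 11 alternative fits. The pre-mRNA count was 6 when any 1 of the same 3 libraries was left out, and 7 without a filter or with limma-voom. The pre-mRNA calls lost were of Irgm1 (called in 8 of 11 alternative fits, limma adjusted p up to 0.094), Igtp (7 of 11, up to 0.148) and Iigp1 (10 of 11, up to 0.211).

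Late IL-10 left the GTPases near their LPS level. By limma 0 of 8 members were called in mRNA and 0 of 8 in pre-mRNA, 0 at an unadjusted p under 0.05 in either measure and 0 by limma-voom. Of all genes 0% were called in either direction in mRNA, and 0.979% were called higher and 0.0629% lower in pre-mRNA. Log2 changes of the members ran from -0.02 to 0.15 in mRNA and from -0.04 to 0.44 in pre-mRNA, with 95% intervals reaching from -2.89 to 3.19 in mRNA and from -1.73 to 2.58 in pre-mRNA. Gbp5 pre-mRNA was at 102739 and 54003 normalised reads with late IL-10, against 100576 and 53874 with LPS. Iigp1 pre-mRNA, the member farthest from 0, was at 4262 and 965 with late IL-10, against 3134 and 711 with LPS. In all 8 members and both measures the libraries of the 2 groups overlapped. In the same late IL-10 libraries, pre-mRNA of Stat3, the transcription factor of the IL-10 receptor, rose by 2.12 ± 0.32 on the log2 scale against LPS (limma adjusted p 0.028), and that of the phosphatase Ptpn1 by 2.34 ± 0.31 (limma adjusted p 0.014).

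IL-10 throughout was also set against late IL-10. In pre-mRNA 3 of 8 members were lower, Gbp7 (log2 difference -2.93 ± 0.59), Igtp (-3.11 ± 0.64) and Iigp1 (-4.83 ± 0.92), where 2.2% of genes tested were lower. The other 5 members had log2 differences of -2.98 to -2.28 and limma adjusted p of 0.059 to 0.113. Libraries of all 8 members stood apart between these groups, as they did for 27.1% of genes in this direction. The count was 0 with any 1 library of the 2 groups left out. In mRNA limma called 0 of 8 (4 at an unadjusted p under 0.05, 0 by limma-voom), where 0.569% of genes were lower.

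The 2 libraries of each LPS-treated group differed more in these genes than in most others. In each of the 3 groups all 8 members were higher in the same library. By mRNA that was library A with IL-10 throughout (median log2 difference 1.60), library A with late IL-10 (1.57) and library B with LPS (1.51). In pre-mRNA it was library A in all 3, by medians of 1.66, 1.08 and 1.12. The median size of the difference over all genes was 0.35 to 0.51 in those libraries. In untreated cells the members' median size was 0.24 in mRNA and 0.55 in pre-mRNA, with both directions present. Which libraries of different groups share a pool is not given, so no value can be corrected for it. The standard errors above pool the spread of all groups, untreated cells included, and limma draws them towards the trend over all genes. They can therefore be smaller than the spread within the LPS-treated groups alone.

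**Figure D4:**
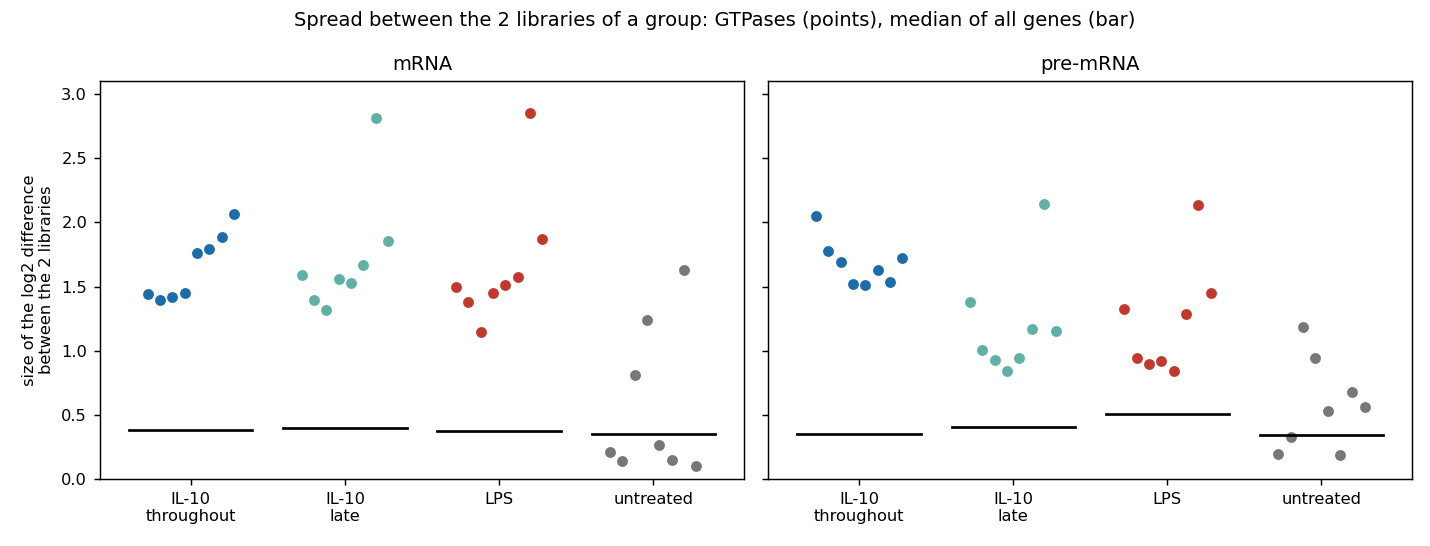
Size of the log2 difference between the 2 libraries of a group for each of the 8 GTPases (points, in the order Gbp2, Gbp3, Gbp5, Gbp7, Irgm1, Igtp, Iigp1, Ifi47) and its median over all genes (bar), in mRNA and pre-mRNA. In the 3 LPS-treated groups every GTPase lies above the bar, from 0.84 to 2.85, and untreated cells show both larger and smaller differences than the bar.

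Of 21 other interferon-inducible GTPases looked for, 13 were in the table. Each listed gene had 11 or more reads in both LPS mRNA libraries, so a GTPase low with LPS could not enter the counts that follow. Gbp4, Gbp6, Tgtp1, Tgtp2 and Gm4951 had 0 to 4 mRNA reads per untreated library. LPS raised 12 of the 13 in mRNA and 11 in pre-mRNA, where 19.2% and 22.3% of all genes tested were called higher. With IL-10 throughout, limma called 5 of the 13 lower in pre-mRNA, where 4.26% of genes tested were, and 0 in mRNA, where 1.05% were (9 of the 13 had an unadjusted p under 0.05, all lower). The median log2 change was -2.95 in pre-mRNA and -2.56 in mRNA. The 5 were Gm4951, Mx1, Gbp6, Irgm2 and 9930111J21Rik1. Mx1, an antiviral dynamin-like GTPase, had pre-mRNA at 8064 and 2396 normalised reads with IL-10 throughout, against 111431 and 34444 with LPS (log2 change -3.82 ± 0.81, limma adjusted p 0.036). Irgm2, the remaining regulatory GTPase, was at 746 and 180.1 with IL-10 throughout, against 3133 and 1908 with LPS (log2 change -2.73 ± 0.63, limma adjusted p 0.045), and its pre-mRNA value is uncertain because of the 7974 bases it shares with Igtp. Gbp2b, next to Gbp2 on chromosome 3, kept 44.5% of its LPS rise in mRNA and 17.1% in pre-mRNA, close to its 4 neighbours. Gbp4, Gbp6 and Gbp9, from the cluster on chromosome 5, kept 18.4%, 20.0% and 26.5% in mRNA, and Gbp4 and Gbp9 share 23773 bases of span on the same strand. Gbp4 had only 92 and 9 mRNA reads with IL-10 throughout, and mRNA libraries of Gbp2b, Gbp4 and Gbp9 overlapped those of LPS. These shares come from group means and were not recomputed with a library left out, so a difference between the clusters was not tested. For Gbp6, Tgtp1, Tgtp2 and 9930111J21Rik1, 70.7% to 86.6% of 50-base words occur in another gene, and their values are uncertain. Late IL-10 called 0 of the 13 in either measure (0 at an unadjusted p under 0.05).

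Among the genes upstream, Ifnb1, the intronless gene for interferon-beta, was counted in mRNA and listed at 0 in pre-mRNA. Its mRNA was at 15.2 and 17.0 normalised mRNA reads in the IL-10 throughout libraries, at 175 and 109 in the late IL-10 ones and at 92.7 and 273 with LPS, and it was listed at 0 in both untreated libraries. It fell with IL-10 throughout, by 3.23 ± 0.61 on the log2 scale against LPS (limma adjusted p 0.049), and had a log2 change of -0.20 with late IL-10. Of 10 interferon and receptor genes looked for, 5 were in the table, and none of the 4 receptor chains was called with IL-10 throughout in either measure. Of 8 genes that signal to interferon genes, 2 fell in pre-mRNA: Ticam2, an adaptor of the LPS receptor (log2 change -2.10, limma adjusted p 0.019), and Irf7, which amplifies interferon production (-2.57, limma adjusted p 0.025). Ticam2 fell in mRNA as well (-1.84, limma adjusted p 0.017). Of all genes tested 4.26% were called lower in pre-mRNA and 1.05% in mRNA.

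Among 10 transcription factors and kinases of the interferon response, 4 fell in pre-mRNA with IL-10 throughout and none rose. In this measure 4.26% of genes tested were called lower and 2.44% higher, and in mRNA 1.05% and 1.19%. Irf1, which acts at ISRE sites, was at 2269 and 1690.3 normalised pre-mRNA reads with IL-10 throughout, against 9452 and 8508 with LPS (log2 change -2.19 ± 0.30, limma adjusted p 0.0094). The kinase Tyk2 had a log2 change of -1.41, Stat2 -2.13 and Batf2 -1.81, with limma adjusted p of 0.016 to 0.033. In mRNA only Stat3 was called, and it rose (1.74 ± 0.22, limma adjusted p 0.013). Of 9 negative regulators of interferon signalling, Usp18, which blocks the interferon receptor, fell in pre-mRNA (-2.75, limma adjusted p 0.034) and Ptpn1 rose in pre-mRNA (1.39) and mRNA (2.49). Socs1 fell in mRNA (-2.04, limma adjusted p 0.035).

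With IL-10 throughout 0 or 1 gene was called in each measure in both lists of genes that work with the GTPases, where 4.26% of all genes tested were lower in pre-mRNA and 1.05% in mRNA. None of 10 ubiquitin-like conjugation genes, whose products guide GTPases to vacuoles, was called with IL-10 throughout in either measure by limma (1 in each, Atg5, was higher at an unadjusted p under 0.05). Of 8 non-canonical inflammasome genes, through which guanylate-binding proteins act on LPS in the cytosol, 1 fell in pre-mRNA (Il18, log2 change -3.40, limma adjusted p 0.019) and 1 in mRNA (Nlrp3, -1.19, limma adjusted p 0.034). Casp4, the cytosolic LPS sensor, had log2 changes of -0.88 in pre-mRNA and -0.32 in mRNA and was not called. With late IL-10 none of these 18 genes was called in either measure.

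The genes outside the family whose mRNA followed the members' mean most closely over the 8 libraries were Parp14, Mitf, Samd9l, Parp9 and Dtx3l (Pearson r 0.998 to 0.999, among 11383 genes). In pre-mRNA they were Oas1a, Olfr56, Ifit1, Slfn5 and Ifi44 (r 0.997 to 0.999, among 10806 genes). Each member's own r with the mean of the others was 0.973 to 0.991 in mRNA and 0.976 to 0.999 in pre-mRNA. These points share libraries and the contrast between LPS-treated and untreated cells, and Olfr56 shares its span with Ifi47.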

How the data were processed

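The deposited signal values are, per the labels and the column names, group means for mRNA and pre-mRNA from directional ribosome-depleted total RNA. Per the submitters' processing notes the authors used Trim Galore, DESeq and build mm10. Not given in the sources used here: versions, aligner, counter, annotation, and how reads were assigned to pre-mRNA. Both libraries' reads behind each mean were recovered with Python 3.11.15 (largest relative error 5.8e-15, 1 solution for every value), and recomputed median-of-ratios size factors differed from those in the deposited values by at most 1e-14 (log2). Tests used limma-trend (limma 3.58.1, R 4.3.3) on log2(normalised reads + 1), which understates changes of low genes, for genes whose mean was 1 or more, all 8 libraries of a measure in 1 fit with group as the only term, threshold 0.05 on the Benjamini-Hochberg adjusted p. The recovery and the fit were tested on simulated data. Intervals are at 95%. The p-values rest on the spread between 2 libraries per group, pooled over all groups and drawn by limma towards the trend over all genes. Part of that spread may be technical. No listed gene had under 11 reads in an LPS mRNA library, while the smallest count in the other mRNA libraries was 0 to 2. Genes low with LPS are therefore missing from every comparison, both rises with LPS and drops against it.

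The members, the lists (other family genes, 6 pathway lists, cell markers) and the tests were chosen with earlier results of these data known. For 1 gene of the pathway lists the result is not reported here. Genes are named as the 8 members, the other family genes, up to 4 genes per pathway list with the smallest adjusted p in pre-mRNA plus those a sentence on a list calls for, and the 5 genes most like the members' mean among those whose mean was 10 or more. Promoters are from RefSeq (GRCm38.p6). The share of an LPS rise left is the IL-10 group mean minus the untreated mean, over the LPS mean minus the untreated mean.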

Additional observations from a re-analysis of the deposited data

Results flagged for a closer look

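The pre-mRNA change against LPS was called different between IL-10 throughout and late IL-10 for 3 of the 8 GTPases. Of all genes tested 2.2% were called lower. The test was of the difference between the 2 IL-10 groups in the limma fit of all 8 libraries. The log2 difference (IL-10 throughout minus late IL-10) was -2.93 for Gbp7 (limma adjusted p 0.046), -3.11 for Igtp (limma adjusted p 0.049) and -4.83 for Iigp1 (limma adjusted p 0.044). Both IL-10 throughout libraries were below both late IL-10 libraries in each gene: 1268 and 441 against 7677 and 4267 normalised reads for Gbp7, 736 and 237 against 5432 and 2415 for Igtp, and 121 and 41.0 against 4262 and 965 for Iigp1. None of the 3 was called when any 1 of these libraries was left out. The members not called had log2 differences of similar size, from -2.98 (Ifi47) to -2.28 (Irgm1), so the calls do not set these 3 genes apart. The late IL-10 dose is not restated in the labels, so exposure time and dose cannot be told apart.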

How the results depend on the processing

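In each of the 5 comparisons and both measures, the fits with another pseudocount, another filter, another scaling, limma-voom, only the compared groups, or 1 library left out were set against the values above. The LPS rises of the 8 members kept their direction and were called in all 11 alternatives, with the exception of Iigp1 mRNA under limma-voom (limma-voom adjusted p 0.072). For IL-10 throughout against LPS in pre-mRNA the count of 6 became 2 with only the compared groups, 0 without a filter, 7 with both other scalings, and 0 to 7 with 1 library left out. For IL-10 throughout against late IL-10 in pre-mRNA the count of 3 became 0 with only the compared groups, 0 without a filter, 6 when scaled to total reads, 5 when scaled to the upper quartile, and 0 to 0 with 1 library left out. For IL-10 throughout against untreated cells in mRNA the count of 8 became 4 to 7 with 1 library left out. The cause was not tested. Scaling to total reads moved the median of all genes by 0.46 (IL-10 throughout against LPS) and -0.91 (LPS against untreated) in pre-mRNA, and relative to that shift the members' changes with IL-10 throughout against LPS ran from -4.38 to -2.32.

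Some directions changed. With late IL-10 against LPS, the mRNA changes with 1 library left out ran from -0.74 to 0.85 for Gbp2, -0.67 to 0.72 for Gbp3, -0.63 to 0.68 for Gbp5, -0.80 to 0.76 for Gbp7, -0.69 to 0.83 for Irgm1, -0.71 to 0.95 for Igtp, -1.28 to 1.57 for Iigp1, -0.84 to 1.03 for Ifi47. In pre-mRNA they ran from -0.70 to 0.68 for Gbp2, -0.48 to 0.53 for Gbp3, -0.45 to 0.48 for Gbp5, -0.44 to 0.48 for Gbp7, -0.52 to 0.43 for Irgm1, -0.55 to 0.74 for Igtp, -0.63 to 1.51 for Iigp1, -0.65 to 0.80 for Ifi47, and there Gbp2 turned to 0.021 (total reads) and 0.042 (upper quartile) and Irgm1 to 0.0044 (upper quartile). Gbp7 mRNA ran from -1.45 to 0.00026 against LPS and from -1.48 to 0.074 against late IL-10. The pre-mRNA minus mRNA difference with IL-10 throughout ran from -1.01 to 0.75 for Irgm1, -1.55 to 0.24 for Igtp, -2.0 to 0.85 for Iigp1, -1.49 to 0.58 for Ifi47, and for Irgm1 it was 0.070 (total reads) and 0.0060 (upper quartile).

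No paired analysis was possible because the columns carry no replicate number and libraries of different groups cannot be matched. Where a library is left out, the lone library of that group is assumed to vary like the others.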
